A study of Cricetulus griseus with 9 samples.

Results

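The comparison described here sets CHO-K1 cells given pre-miR-29a against CHO-K1 cells given anti-miR-29a. It uses 6 of the 9 libraries of the series, 3 in each group, and the 9504 genes of 15557 whose mean over the 9 libraries was at least 1 FPKM. CHO-K1 is an established cell line from Chinese hamster ovary. Pre-miR-29a is a synthetic precursor of miR-29a, and anti-miR-29a is an inhibitor that the submitters describe as acting on miR-29b-1 as well as miR-29a. Cells of both groups, and of a further group given pre-miR-29b-1, were grown in medium with charcoal-stripped serum and collected 48 h after lipid transfection. Each group therefore differs from the others in the small RNA it received, and cells with no small RNA or a control RNA were not analysed here. Transfections were done in separate experiments, and the wording does not settle whether an experiment held all molecules, so experiment and group may not be separable. Cells were grown in triplicate, but the labels do not tie each library to its own culture. The p-values therefore weigh the difference of groups against how far libraries of a group lie apart, pooled over the 9 libraries. That spread may be technical.

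MicroRNAs of the miR-29 family pair with target mRNAs through a shared seed near their 5′ end and lower the stability or the translation of those mRNAs. The family is best known for lowering transcripts of collagens and other extracellular matrix proteins in fibroblasts. The libraries hold poly(A) mRNA, so the mature miR-29 level itself was not measured in them. The unit, FPKM, counts fragments per kilobase of a gene's model, scaled between libraries in a way that the sources used here do not give.

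Genes carry mouse Ensembl identifiers, because the gene models are mouse proteins aligned to the hamster genome. The files do not pair these identifiers with names. Of the 15557 identifiers, 0 matched an entry of the supplied RefSeq table, which holds 32251 genes of the CriGri-PICRH-1.0 assembly. No gene names are therefore given. The functions of the genes that fell and rose could not be described, with the exception of cell cycle phase sets that are themselves listed by mouse Ensembl identifier. For the same reason the labelled cell type could not be checked against its markers, and 31 gene lists by symbol could not be applied.

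The identifiers with the largest falls and rises were taken by 1 rule. It asked for a gene that passed the test, with a mean of 5 FPKM or more over the 9 libraries. It also asked for groups whose 6 libraries did not overlap, and 1 gene model that shares no exon bases with another gene. Most of the 9 libraries received a pre-miR, so genes high with the pre-miRs meet the limit on level more easily. That rule was met by 2552 genes that were lower and 2130 that were higher with pre-miR-29a, and 2 identifiers each way are described. The lack of overlap given for each of them below therefore follows from the rule.

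ENSMUSG00000024538 had the largest fall of the genes that met the rule. It stood at 243, 237 and 245 FPKM in the anti-miR-29a libraries and at 18.4, 18.2 and 18.0 FPKM in the pre-miR-29a libraries. Every pre-miR-29a library lay far under every anti-miR-29a library, and libraries of a group lay close together. The means were 241.7 ± 4.24 FPKM (SD, n = 3) with anti-miR-29a and 18.2 ± 0.24 FPKM (SD, n = 3) with pre-miR-29a, a 13.3-fold difference of means. The log2 fold change was -3.66 (SE 0.044) at a Benjamini-Hochberg adjusted p of 2.62e-11 (limma). The gene stood at rank 884 of 9504 by level with anti-miR-29a and at rank 6613 with pre-miR-29a. Its model has 5 coding exons and 516 coding bases, on scaffold JH000456 of CriGri_1.0 from 374214 to 379660, minus strand.

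ENSMUSG00000029379 fell next most. Its anti-miR-29a libraries stood at 74.7, 65.5 and 64.2 FPKM and its pre-miR-29a libraries at 8.41, 6.59 and 10.1 FPKM. The groups did not overlap, although the pre-miR-29a libraries differed among themselves more than those of ENSMUSG00000024538 in proportion to their level. The log2 fold change was -2.90 (SE 0.13) at an adjusted p of 1.2e-07 (limma). Its model is short, with 3 coding exons and 288 coding bases on scaffold JH001227 from 283754 to 284228, plus strand. About 36 to 369 reads per library, as inferred from depth, stood behind these values.

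The rule took ENSMUSG00000050737 and ENSMUSG00000027338 among the genes that rose. ENSMUSG00000050737 stood at 2.32, 3.84 and 2.64 FPKM with anti-miR-29a and at 13.5, 12.4 and 11.4 FPKM with pre-miR-29a. All pre-miR-29a libraries were above all anti-miR-29a libraries. The log2 fold change was 1.79 (SE 0.16) at an adjusted p of 9.4e-06 (limma). The means differed 4.23-fold. The model has 4 coding exons and 462 coding bases on scaffold JH002674 from 82274 to 93066, plus strand.

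ENSMUSG00000027338 rose from 3.80, 3.00 and 3.49 FPKM with anti-miR-29a to 13.3, 14.9 and 13.7 FPKM with pre-miR-29a. Its groups did not overlap either, as the rule required. The log2 fold change was 1.76 (SE 0.088) at an adjusted p of 1.92e-07 (limma). The order of ENSMUSG00000050737 and ENSMUSG00000027338 is not settled, since their log2 fold changes lie within 1 SE of each other. It turned without anti-miR-29a replicate 1, at 1.67 for ENSMUSG00000050737 and 1.82 for ENSMUSG00000027338, without anti-miR-29a replicate 3 (1.74 and 1.77), without pre-miR-29a replicate 1 (1.73 and 1.79) and with a pseudocount of 5 (1.14 and 1.17). Its model is a single coding exon of 537 bases on scaffold JH000136 from 607256 to 607792, minus strand. Both genes that rose were low with anti-miR-29a, at ranks 8865 and 8937 of 9504. The anti-miR-29a means were 3.43 FPKM for ENSMUSG00000027338 and 2.93 FPKM for ENSMUSG00000050737. Both genes therefore met the rule's limit of 5 FPKM only through the groups where they were high. Their lowest values correspond to about 24 reads for ENSMUSG00000027338 and 18 for ENSMUSG00000050737, as inferred from depth.

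**Figure D1:**
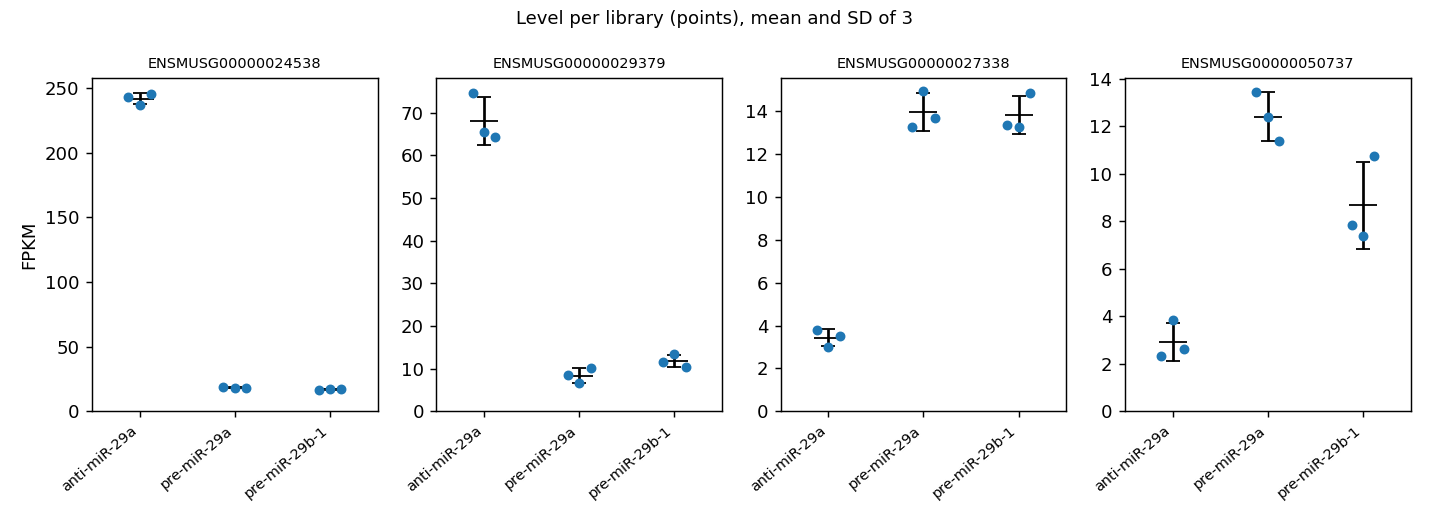
FPKM (vertical axes, from 0) of the 4 identifiers in each library of the 3 groups; points are libraries, and the bars are the mean and the SD of 3 libraries. In each panel the pre-miR-29a libraries lie on 1 side of all anti-miR-29a libraries, as the rule required. For ENSMUSG00000024538 they lie at 18.0 to 18.4 FPKM against 237 to 245 FPKM.

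The same identifiers were measured with pre-miR-29b-1. The anti-miR-29a libraries serve as reference in both cases, so the values are only set side by side. The log2 fold changes from anti-miR-29a were -3.76 for ENSMUSG00000024538, -2.43 for ENSMUSG00000029379, 1.30 for ENSMUSG00000050737 and 1.74 for ENSMUSG00000027338 with pre-miR-29b-1. In the test of the difference between the pre-miRs, none of the 4 passed, with adjusted p of 0.302, 0.22, 0.233 and 0.944 in that order (limma). The 95% intervals of the log2 difference, pre-miR-29b-1 less pre-miR-29a, ran from -0.20 to 0.00 for ENSMUSG00000024538 and from 0.16 to 0.77 for ENSMUSG00000029379. They ran from -0.85 to -0.13 for ENSMUSG00000050737 and from -0.21 to 0.18 for ENSMUSG00000027338. These intervals are not adjusted for the number of genes, and those of ENSMUSG00000029379 and ENSMUSG00000050737 leave out 0. The 4 identifiers were chosen by their pre-miR-29a values, which favours a larger change there than with pre-miR-29b-1. Both intervals lie in that direction.

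Over all tested genes, 58.4% passed the test (adjusted p under 0.05), 2940 of them lower (30.9%) and 2613 higher (27.5%) with pre-miR-29a. The genes that fell had a median log2 fold change of -0.49 and those that rose one of 0.37, while the median over all tested genes was -0.016. Direction depended on size. Under 1.5-fold, more genes rose than fell, with 2080 against 1793. From 1.5-fold to 2-fold the order turned, with 742 lower and 442 higher. At least 2-fold, 405 genes fell (4.26%) and 91 rose (0.957%). At least 3-fold the counts were 81 and 8, and at least 4-fold 25 and 2. The genes at least 2-fold higher numbered 176 with a pseudocount of 0.1 in place of 1, and 29 with a pseudocount of 5, where 263 were lower. Quantile normalization moved the balance of all genes that passed, to 2494 lower and 3340 higher, and that of the genes changed at least 2-fold to 328 lower and 116 higher.

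**Figure D2:**
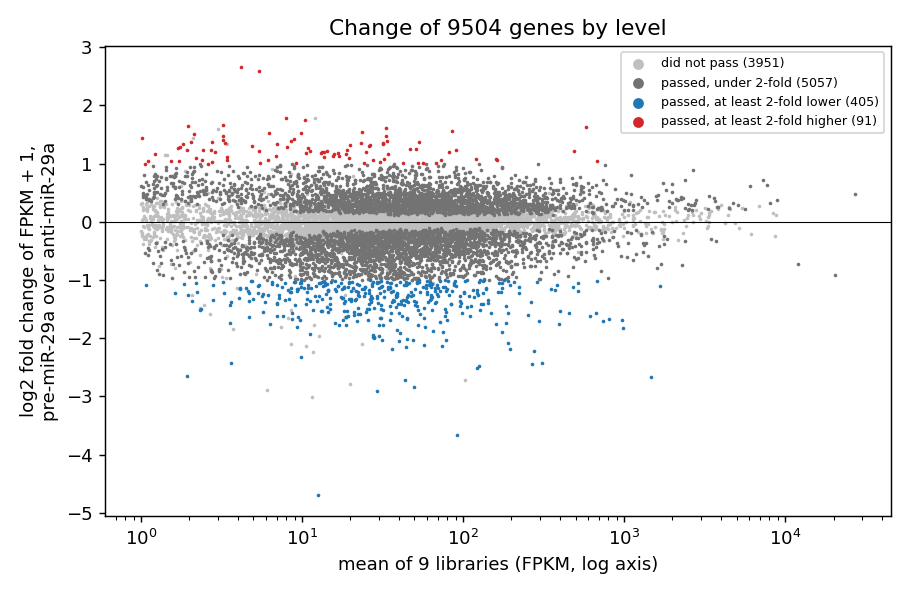
Log2 fold change of FPKM + 1, pre-miR-29a over anti-miR-29a (vertical axis), against the mean FPKM of the 9 libraries (horizontal log axis), 1 point per tested gene. Blue points are the 405 genes at least 2-fold lower and red points the 91 at least 2-fold higher; the blue points reach further from 0 and lie across a wider range of levels.

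For 62.2% of the tested genes, the pre-miR-29a libraries all lay on 1 side of the anti-miR-29a libraries. Among the genes changed at least 2-fold, this held for 405 of 405 that fell and 90 of 91 that rose, which their choice by size in these libraries favours. A further 29 genes differed at least 2-fold in the fit and did not pass. Of these, 22 had several models or shared exon bases with another gene. Among all tested genes, 92.2% had 1 model with no shared bases. Of the 29, 12 were listed at 0 in at least 1 of the 6 libraries. In all, 38 tested genes had such a listing. Whether a 0 stands for no reads or a failed estimate is not given, nor how reads that fit several models were assigned. These genes are therefore uncertain, and why the 29 did not pass was not tested. Of the genes changed at least 4-fold, 22 of 25 that fell and 1 of 2 that rose had 1 model with no shared bases. In addition, 1 gene had a lower log2 fold change than ENSMUSG00000024538 and did not meet the rule.

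The 405 genes that fell at least 2-fold are 4.26% of the tested genes and held a similar share of all FPKM with anti-miR-29a, a mean of 4.47%. Their median of mean FPKM was 31.8, against 38.2 over all tested genes. They made up 4.6%, 4.34% and 4.46% of all FPKM in the anti-miR-29a libraries and 1.69%, 1.53% and 1.63% in the pre-miR-29a libraries. The 91 that rose held 0.167%, 0.158% and 0.164% with anti-miR-29a and 0.403%, 0.374% and 0.407% with pre-miR-29a. Both sets were chosen by these values, so the direction of the shares follows from the choice, and only their size is described.

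Genes that fell strongly were found at every level of expression, and genes that rose strongly mostly at low levels. Genes were split by mean FPKM into 4 bins of 2376. In the first, up to 15.2 FPKM, 106 genes fell and 51 rose at least 2-fold. The second bin held 116 and 23, and the third 107 and 11. In the bin of most abundant transcripts, from 94.4 FPKM upward, 76 genes fell and 6 rose at least 2-fold. At any size, however, that top bin held more genes that rose than fell, 753 against 640, and its median log2 fold change was 0.041. The other bins held more that fell, with 654, 847 and 799 lower against 551, 605 and 704 higher. Counts of low genes depend on the pseudocount, which shrinks their changes, and the median SE was 0.11 in the lowest bin and 0.066 in the highest.

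**Figure D3:**
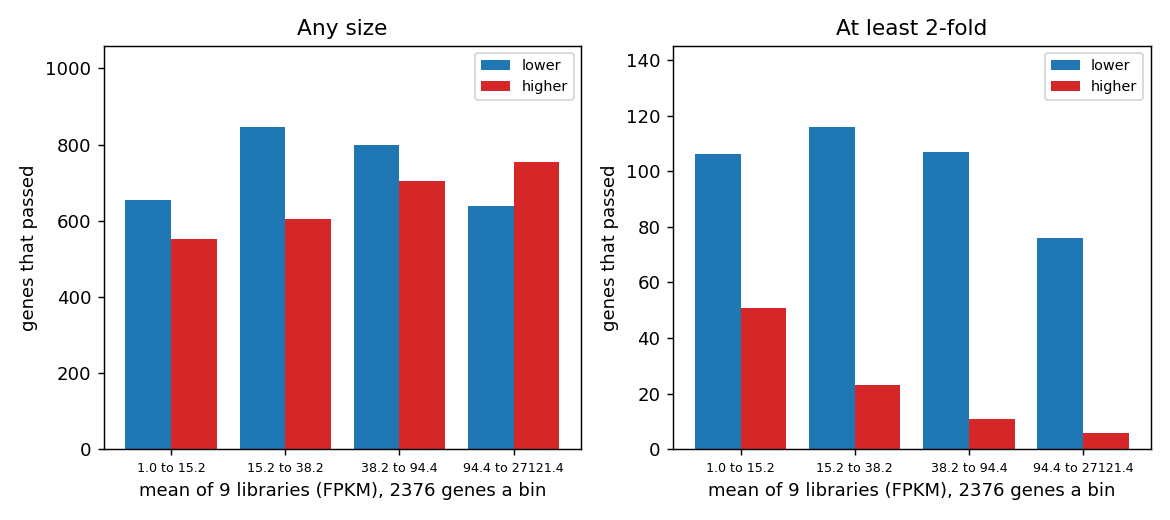
Genes that passed (vertical axes, counts from 0) in 4 bins of mean FPKM, lower in blue and higher in red, at any size on the left and at least 2-fold on the right. In the top bin 753 genes rose and 640 fell at any size, while 6 rose and 76 fell at least 2-fold.

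Properties of the gene models were set beside the changes as a description. Length is not independent of the comparison, since FPKM divide by it, and it therefore enters the filter on level and the effect of the pseudocount. The median coding length was 1309.5 bases over all tested genes, 1176 bases for the 405 genes at least 2-fold lower and 960 bases for the 91 at least 2-fold higher. Their median coding exon numbers were 9, 8 and 6. A single coding exon was present in 5.01% of all tested genes, in 5.19% of those at least 2-fold lower and in 7.69% of those at least 2-fold higher. When genes were split into 4 bins of coding length, 118, 110, 107 and 70 genes were at least 2-fold lower from the shortest bin to the longest, and 34, 26, 18 and 13 at least 2-fold higher. At any size, the shares that fell were 27.0%, 31.4%, 31.5% and 33.8% in the same order, and the shares that rose 24.2%, 29.04%, 30.4% and 26.3%. The shortest genes thus passed least often in either direction. Level moves with length, since the median of mean FPKM was 84.5 in the shortest bin and 24.0 in the longest. Its part in these values was not tested.

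**Figure D4:**
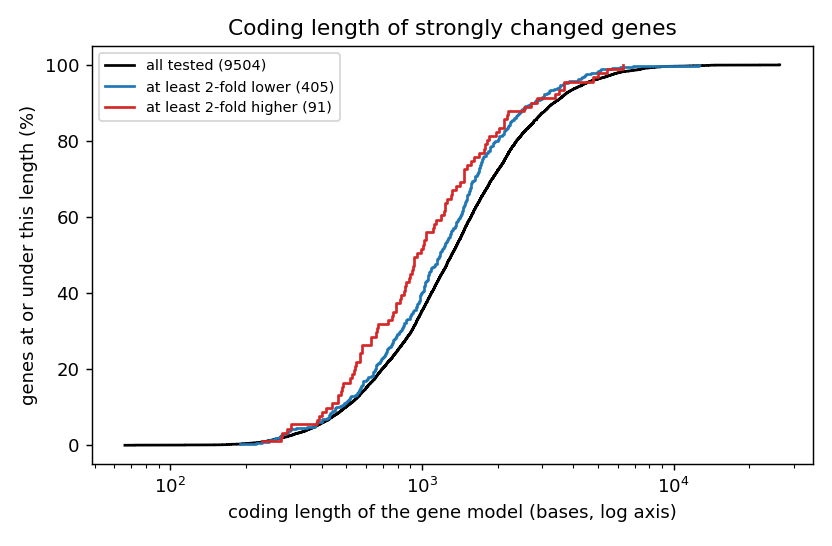
Cumulative share of genes (vertical axis, percent) by coding length of the gene model (horizontal log axis, bases) for all 9504 tested genes, the 405 at least 2-fold lower and the 91 at least 2-fold higher. The curve of the higher genes lies furthest to the left, with a median of 960 bases against 1309.5 bases for all tested genes.

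Neighbours on the genome were compared for genes with 1 model and no shared exon bases. For each gene, the nearest tested genes on either side on the same scaffold were taken, which gave 13814 neighbours for 8765 genes, and 4.26% of these were at least 2-fold lower. Neighbours of the 376 genes at least 2-fold lower were themselves at least 2-fold lower in 34 of 589 cases (5.77%). Their median log2 fold change was -0.039, against -0.015 for neighbours of any gene. Neighbours of the 82 genes at least 2-fold higher were at least 2-fold higher in 4 of 126 cases (3.17%), against 0.912% of all neighbours. They were at least 2-fold lower in 5 cases (3.97%), against 4.26% of all neighbours. At any size these neighbours were higher in 23.8% of cases and lower in 34.1%, against 28.3% and 31.1% of all neighbours. Their median log2 fold change was -0.023. These cases include each adjacent pair from both sides. A pair whose genes changed the same way is thus counted from each side, and the 4 cases hold fewer pairs.

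Cell cycle genes were the 1 functional group that could be described. The sets are mouse genes that serve as the higher member of marker pairs for 1 phase alone in the scran package, which assigns phases to single cells. In the G1 set, 6 of 11 tested genes fell, 3 rose and 2 did not pass, with a median log2 fold change of -0.30. The S set, of DNA synthesis, held 29 tested genes, of which 9 fell, 7 rose and 13 did not pass, with a median of -0.063. In the G2M set, of late interphase and mitosis, 7 of 23 tested genes fell, 9 rose and 7 did not pass, with a median of 0.17. Against the 30.9% and 27.5% of all tested genes that fell and rose, the shares were 54.5% and 27.3% in the G1 set, 31.0% and 24.1% in the S set, and 30.4% and 39.1% in the G2M set. These medians depend on the summary used. The median level of the set's genes, on the log2(FPKM + 1) scale, was 6.24, 6.003 and 6.13 with anti-miR-29a and 6.31, 6.16 and 6.15 with pre-miR-29a in the G1 set, so it did not share the sign of the median fold change. In the S set it was 5.40, 5.48 and 5.51 against 5.06, 5.11 and 5.17, a larger gap than the median fold change. In the G2M set it was 5.31, 5.32 and 5.38 against 5.32, 5.17 and 5.27, so that the groups overlapped. No direction is therefore given for any set as a whole. Members moved in both directions in each set, and changes ran from -1.51 to 0.92 on the log2 scale in the G2M set. Few of these genes reached 2-fold, with 1 in the S set and 1 in the G2M set, both lower. With pre-miR-29b-1 the medians were -0.31, -0.16 and 0.14 in the same order. No phase of the cells can be read from these counts, and the G1 set is small.

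Depth was similar in both groups. The smallest steps between low FPKM values implied 15110000 to 17840000 reads in the anti-miR-29a libraries and 16560000 to 18960000 in the pre-miR-29a libraries. Correlations of log2 values across genes, which are not independent replicates, were 0.988 to 0.992 within these groups and 0.961 to 0.966 between them. Pre-miR-29a replicate 1 received the lowest estimated library weight of the series, 0.213. Its median log2 difference from the anti-miR-29a mean over the 405 genes at least 2-fold lower was -1.24, against -1.33 and -1.32 in replicates 2 and 3. Without it, 5876 genes passed in place of 5553.

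Between the pre-miRs, 1 gene of 9504 passed (0.0105%), and it is named for that reason, after its values were seen. ENSMUSG00000031167 stood at 91.2, 93.0 and 79.5 FPKM with pre-miR-29a, at 162, 165 and 159 FPKM with anti-miR-29a and at 158, 145 and 150 FPKM with pre-miR-29b-1. The pre-miR-29a libraries lay under all others. The log2 fold change of pre-miR-29a from anti-miR-29a was -0.88 (SE 0.063) at an adjusted p of 2.08e-06 (limma). For the 496 genes changed at least 2-fold with pre-miR-29a, the 95% interval of the difference between the pre-miRs lay within 1.5-fold for 425 (85.7%), against 92.7% of all tested genes. Those that fell had a median log2 fold change of -1.28 with pre-miR-29a and -1.16 with pre-miR-29b-1, and those that rose medians of 1.22 and 1.09. The sets were chosen by the pre-miR-29a values, which favours the larger value there. The count of 1 gene is unstable. It was 1370 without pre-miR-29a replicate 1, 3627 with array weights and 184 with the replicate number as a block. It was 0 without moderation of the variances and 0 with only the pre-miR groups in the fit (limma), which ends the call.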

How the data were processed

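FPKM per gene and library were deposited by the authors. The submitters' processing notes name FastQC, the aligner TopHat2 2.0.13 and, for the values, Cuffnorm. How libraries were scaled, whether strand was used and what was filtered is not given in the sources used here. Per the file headers, gene models are mouse Ensembl proteins aligned to CriGri_1.0, so lengths are coding lengths and untranslated regions are outside them. Exon positions were read from the deposited annotation.

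Tests used limma 3.58.1 (R 4.3.3) on log2(FPKM + 1), which understates changes of low genes, with a variance trend and all 9 libraries in 1 fit with a term per group. They were two-sided, with Benjamini-Hochberg adjustment over 9504 genes and a threshold of 0.05. Depth in reads, in the unit Cuffnorm divided by, was inferred from the steps of low values in long gene models. These lay within 0.2 of a whole number for 99.4% to 100% of values of up to 5 reads. Reads behind a named gene's values were computed from that depth and rounded. On simulated data for pre-miR-29a against anti-miR-29a with 9504 genes, the test recovered 79% of 100 genes set to change 1.5-fold. It recovered 92% of 100 set to change 2-fold, with 9 false calls among the unchanged genes. Errors were drawn as normal and independent, and only these genes were changed, whereas 58.4% of genes passed in the data. The simulated false calls are therefore no estimate of the errors among the genes that passed. Phase sets came from scran 1.30.0.

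Members, lists and the rule for identifiers were chosen with earlier results of these data known. The rule asked for genes with symbols; since none could be paired, the rule's fallback of 2 identifiers each way, without that condition, was used. Symbols recalled from general knowledge for some identifiers were tried during the work and withdrawn, because no file or supplied table pairs them, and no value here rests on them. Seed matches were not searched, as no sequences were used here. Phase sets, length bins and neighbours were chosen after the data were seen.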

Additional observations from a re-analysis of the deposited data

Results flagged for a closer look

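ENSMUSG00000031167 differed between the pre-miRs in a test of the difference itself. The log2 difference, pre-miR-29b-1 less pre-miR-29a, was 0.78 (SE 0.063). Its adjusted p was 0.00282 (limma), and the 3 libraries of either group did not overlap. Without moderation of the variances the adjusted p was 0.209 (limma), and a fit of only the pre-miR groups gave 0.0649 (limma). On scaffold JH000543 of CriGri_1.0 its model runs from 839716 to 841390, minus strand, with 5 coding exons.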

How the results depend on the processing

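In pre-miR-29a against anti-miR-29a, all 18 alternatives gave a count of changed genes within 1.5 times of 5553. The highest was 6790, with array weights, and leaving out 1 library gave 4856 to 5876. At least 2-fold, 496 genes became 292 with a pseudocount of 5, with 263 lower and 29 higher, and 176 were higher with a pseudocount of 0.1; raising the pseudocount shrinks low genes' changes by construction. Leaving out 1 library gave 489 to 549. Percent lower among all genes that passed was 52.9, but 42.7 with quantile normalization, and at least 2-fold it was 81.7, but 73.9. Between the pre-miRs the count was 1, but 0 without moderation, 0 with only the groups compared, 3627 with array weights, 184 with the replicate block, and 1 to 1370 without 1 library; the cause was not tested. Libraries with 1 number in both groups deviated together with r of 0.142, 0.129 and 0.0097, against at most 0.049 for different numbers. Replicate 3 did not correlate best with its own number, so these values do not settle whether numbers pair the libraries. With the replicate block 5870 genes passed for pre-miR-29a against anti-miR-29a. The 5 named identifiers kept their direction and call against anti-miR-29a in all 18 alternatives, with a largest adjusted p of 0.000575 (limma), for ENSMUSG00000050737. All were chosen by values of these same libraries, which favours that outcome. Alternatives for the gene lists by symbol were not run. Values of few reads limit the low genes, and intervals from reads cover counting error only.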
